A study of Saccharomyces cerevisiae with 13 samples.

Results

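The genes of glycolysis and fermentation were followed in budding yeast (Saccharomyces cerevisiae, W303 background) labelled as mutant in YOX1 and YHP1, 2 genes for homeodomain repressors of the cell cycle. The set holds 32 genes, chosen by a list of open reading frame identifiers, of 6205 gene rows in the deposited table, and all 32 had values on at least 10 of 13 arrays. It covers the hexose kinases, the enzymes from glucose 6-phosphate to pyruvate, the pyruvate decarboxylases, the alcohol and aldehyde dehydrogenases, 3 glycerol genes and the transcription factors TYE7 and GCR1. Alpha factor, a mating pheromone that holds a cells in G1, was used to synchronise the culture, which was then released into the rich glucose medium YEPD and sampled every 10 min from 0 to 120 min, a span that the labels call 2 cycles. Each of the 13 time points was hybridised once, on 1 two-colour array, so there are no replicates. The time-point sample carried Cy5. On every array Cy3 marked the same kind of reference RNA, from wild-type cells grown overnight in YEPD without synchronisation. The sources used here do not say what kind of mutation the cells carry or how many clones were taken. Genotype, synchrony, culture and dye all differ between sample and reference and cannot be told apart. All values below are log10 ratios of sample over reference after centring each array on its median. Base 10 was inferred from the values, and every fold rests on that.

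Glycolysis splits glucose into pyruvate with a net gain of ATP, and yeast growing on ample glucose passes most of the pyruvate on to ethanol by way of pyruvate decarboxylase and alcohol dehydrogenase. Side branches make acetate, through aldehyde dehydrogenases, and glycerol, which takes up surplus NADH. Many steps have several isozymes, some made in large amounts on glucose and others held down until glucose runs low, and the factors Gcr1 and Tye7, with Rap1, activate many of the genes.

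The arrays carried values for 6056 to 6140 of the 6151 genes tested. The cycle was visible in the G1 cyclin gene CLN2, with a 5.44-fold fitted swing and a peak at 18.3 ± 1.17 min (SE), in the histone gene HTA1 (10.1-fold, 29.2 ± 0.977 min) and in the mitotic cyclin gene CLB2 (4.26-fold, 46.8 ± 1.69 min), each called by limma's moderated F test of a 62 min sine wave (adjusted p = 0.000871, 7.51e-05 and 0.0107). CLN2 is one of the genes whose mean set the 62 min period, so its fit partly follows from that choice. The genes named in the label gave a mixed check. YHP1 averaged -0.27 ± 0.0212 (SE) and was below 0 on 13 of 13 arrays, whereas YOX1 ranged from -0.53 at 60 min to 0.12 at 80 min with a periodic course (adjusted p = 0.00775), which goes against an even loss, so the samples are called the cells labelled yox1 yhp1. Of 6 genes typical of a cells, 4 were higher at 0 min than later (limma, adjusted p from 0.000124 to 0.0494; MFA1, with the highest p, lost its call in 15 of 19 alternatives and BAR1 in 1), and of 4 alpha-cell genes 0 were (0 at an unadjusted p under 0.05).

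Across the set, 4 genes had a mean at least 1.5-fold from the reference and 5 passed the test for a cycle, with GLK1 and HXK1 in both groups. The 14 enzyme genes from glucose 6-phosphate to pyruvate had a median range over the 13 arrays of 0.16 log10 units. That was close to the 0.18 of all genes tested, so their range was an ordinary one on these arrays. GLK1 and HXK1 lay above the reference and TYE7 and GPP1 below it. HXK1, GLK1, ALD4, GPD1 and GCR1 passed the test for a cycle. These 5 of 32 are 15.6%, and over all genes tested 15.0% passed, so the set as a whole was called periodic about as often as the genome.

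**Figure D1:**
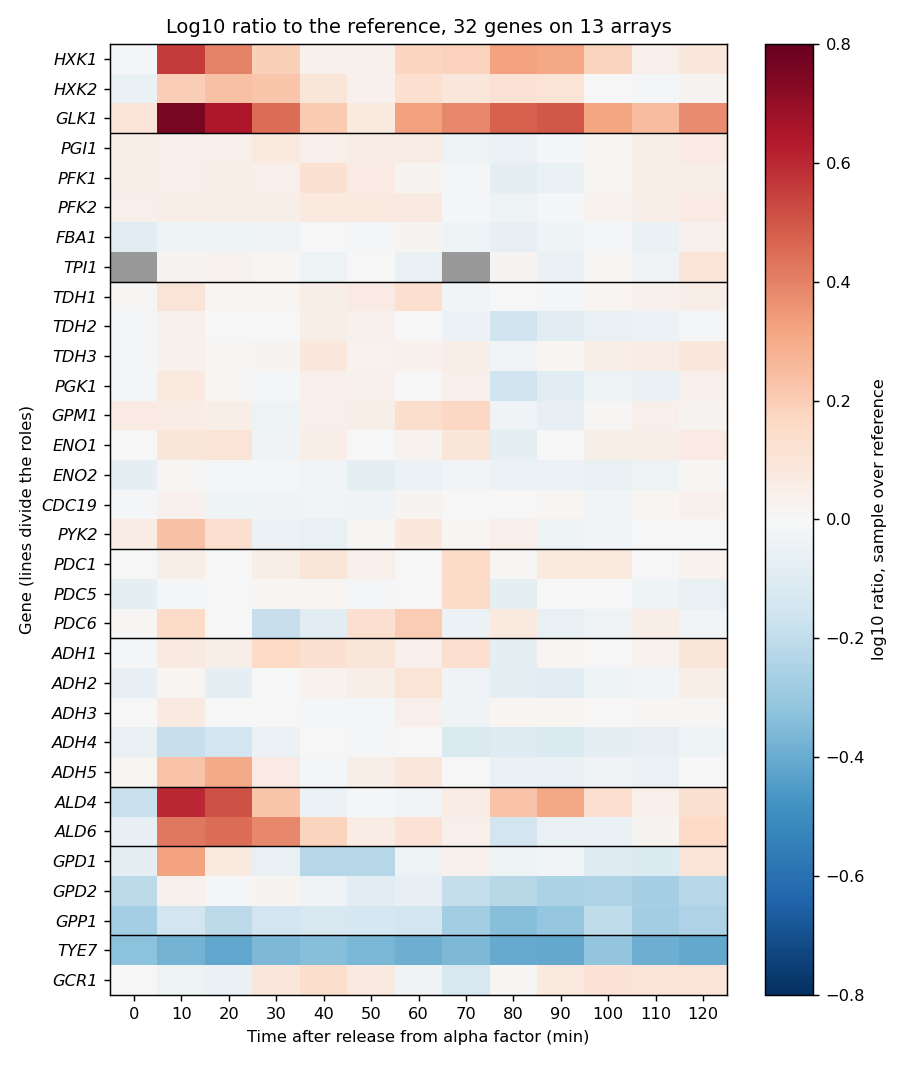
Log10 ratio of sample over reference for the 32 genes (rows, in the order of their roles) on the 13 arrays (columns, min after release). The colour scale runs from -0.8 (blue) to 0.8 (red), and the 2 grey cells are missing TPI1 values. GLK1, HXK1 and ALD4 have their deepest red at 10 min and a paler red at 80 and 90 min, TYE7 is blue throughout, and the rows from PGI1 to CDC19 stay pale.

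The first step of glycolysis, phosphorylation of hexose, held the widest movements of the glycolytic genes proper. GLK1 (YCL040W) encodes glucokinase, an enzyme more prominent on poor carbon sources than on glucose. Its log10 ratios, in steps of 10 min from 0 to 120 min, were 0.10, 0.76, 0.65, 0.45, 0.21, 0.08, 0.33, 0.38, 0.48, 0.50, 0.31, 0.24 and 0.38. Every array was above 0, the highest was that of 10 min, and a lower maximum followed at 90 min. The mean was 0.38 ± 0.031 (SE, n = 13 arrays), 2.39-fold above the reference (limma, adjusted p = 1.51e-07). Genes at least 1.5-fold higher on average with an adjusted p under 0.05 made up 2.67% of all genes tested, and 2 of the 32 members were among them, which is 6.25%. From trough to peak the fitted curve rose 2.89-fold, and it peaked 17.8 ± 1.87 min after release (SE; adjusted p = 0.015).

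HXK1 (YFR053C), the hexokinase isozyme that glucose represses, was the other of the 2. From 0 to 120 min it had log10 ratios of -0.01, 0.56, 0.40, 0.19, 0.03, 0.03, 0.17, 0.19, 0.32, 0.31, 0.18, 0.04 and 0.08. It had maxima at 10 and 80 min and a value just below 0 at the arrest. The mean was 1.57-fold above the reference (0.20 ± 0.0262, adjusted p = 1.72e-05), and its fitted swing was 2.41-fold, highest at 17.9 ± 1.92 min (adjusted p = 0.0166). HXK2 (YGL253W), the main hexokinase of cells growing on glucose, covered a narrower range. Its ratios were -0.05, 0.20, 0.23, 0.22, 0.10, 0.03, 0.14, 0.09, 0.12, 0.11, -0.0006, -0.02 and 0.02 over the same times. The mean was 0.09 ± 0.017 (1.24-fold, below the 1.5-fold minimum), and the fitted swing of 1.45-fold missed the threshold (adjusted p = 0.0855).

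Without the 10 min array the mean of HXK1 was 0.17 and fell short of the 1.5-fold minimum. The GLK1 cycle missed the threshold when the 50 min array was dropped (adjusted p = 0.0616) and with 2 harmonics (0.126), and the HXK1 cycle with 2 harmonics (0.114) and with a 5 min shorter period (0.0853).

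**Figure D2:**
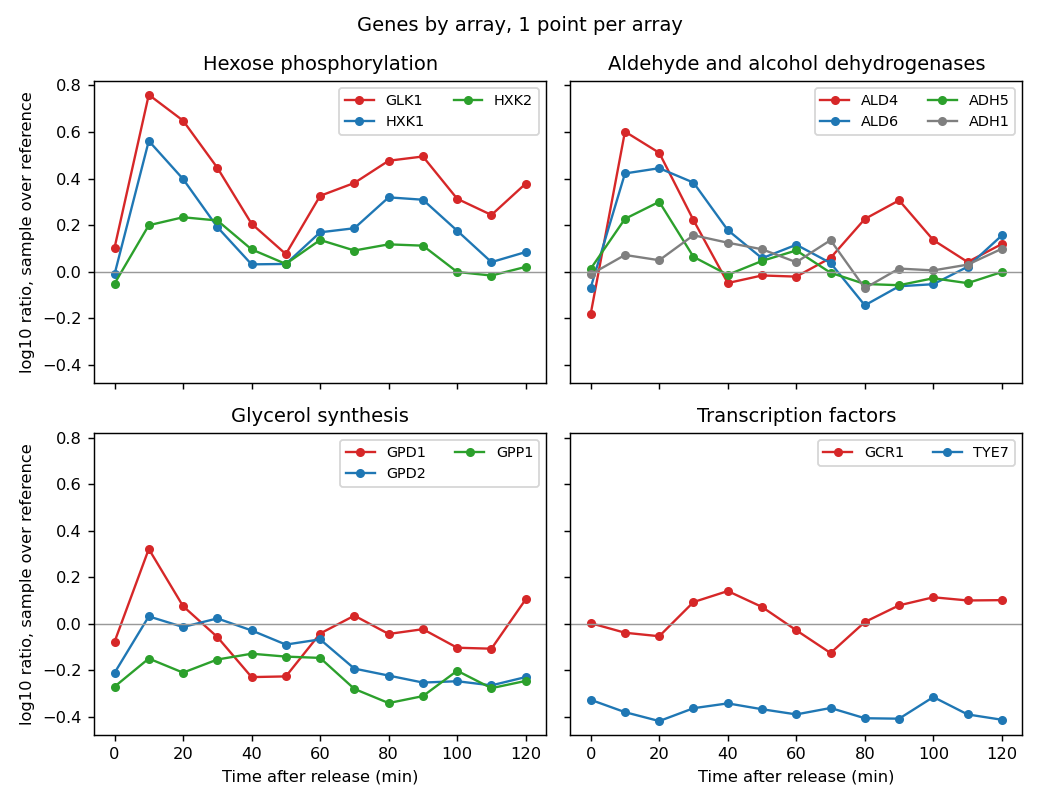
Log10 ratio of sample over reference (vertical axes, 1 shared scale) against time after release (horizontal axes, min) for selected genes, 1 point per array. GLK1, HXK1 and ALD4 peak at 10 min and again, lower, at 80 or 90 min, ALD6 and ADH5 peak at 20 min, and TYE7 stays between -0.42 and -0.31.

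Between glucose 6-phosphate and triose phosphate, 5 genes were measured: PGI1 (phosphoglucose isomerase), PFK1 and PFK2 (the alpha and beta subunits of phosphofructokinase), FBA1 (aldolase) and TPI1 (triose phosphate isomerase). None passed the test for a cycle, with adjusted p from 0.0653 to 0.718, and none reached a 1.5-fold mean. The means lay between -0.03 for FBA1 and 0.04 for PFK2. The subunit genes PFK1 and PFK2 had fitted peaks at 47.5 ± 2.54 and 49.0 ± 2.93 min, with swings of 1.29-fold and 1.22-fold that did not pass. PFK1 spanned -0.08 at 80 min to 0.12 at 40 min, and PFK2 -0.04 to 0.08. TPI1 had no value at 0 and 70 min and was fitted on 11 arrays, on which it ran from -0.06 to 0.10.

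Below triose phosphate the 9 genes had a median range of 0.18 log10 units, against 0.12 for the 5 above it. TDH1, TDH2 and TDH3 encode glyceraldehyde 3-phosphate dehydrogenase, with TDH3 the main form in growing cells and TDH1 known from stationary phase. TDH1 (YJL052W) had log10 ratios of 0.01, 0.10, 0.01, 0.02, 0.04, 0.06, 0.13, -0.02, -0.004, -0.02, 0.02, 0.03 and 0.06, and TDH3 (YGR192C) had -0.01, 0.03, 0.01, 0.02, 0.08, 0.03, 0.03, 0.04, -0.02, 0.02, 0.05, 0.06 and 0.09. Both stayed within 0.16 log10 units, and neither had a cycle that passed (adjusted p = 0.301 and 0.485). TDH2 (YJR009C) had -0.01, 0.03, 0.0017, -0.0008, 0.05, 0.03, -0.0011, -0.05, -0.16, -0.09, -0.06, -0.05 and -0.02. It was the lowest of the 3 from 70 min on, with its minimum at 80 min, and its slope of -0.07 log10 units per 60 min had an unadjusted p of 0.00446 and an adjusted p of 0.0909.

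Enolase is encoded by ENO1 and ENO2, of which ENO2 is induced by glucose. ENO1 (YGR254W) had ratios of 0.0018, 0.10, 0.11, -0.03, 0.05, 0.0042, 0.03, 0.10, -0.07, 0.01, 0.05, 0.05 and 0.07. ENO2 (YHR174W) had ratios of -0.08, 0.01, -0.02, -0.01, -0.02, -0.07, -0.04, -0.02, -0.05, -0.05, -0.06, -0.04 and 0.01. ENO1 was above 0 on 11 arrays and ENO2 below 0 on 11. Phosphoglycerate kinase (PGK1), phosphoglycerate mutase (GPM1) and the main pyruvate kinase (CDC19) ranged from -0.16 to 0.08, from -0.06 to 0.16 and from -0.03 to 0.04. PYK2, a minor pyruvate kinase of glucose-poor conditions, reached 0.23 at 10 min and 0.13 at 20 min and lay between -0.06 and 0.09 on the other arrays. Its fitted swing of 1.37-fold did not pass (adjusted p = 0.115). In all, 0 of the 14 genes from PGI1 to PYK2 were called periodic by limma, where 15.0% of all genes tested were. A mean at least 1.5-fold from the reference was called for 0 of the 14, against 2.67% of all genes higher and 4.24% lower. By adjusted p alone 8 of the 14 means differed from 0, a share to be read against 65.6% of all genes tested.

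**Figure D3:**
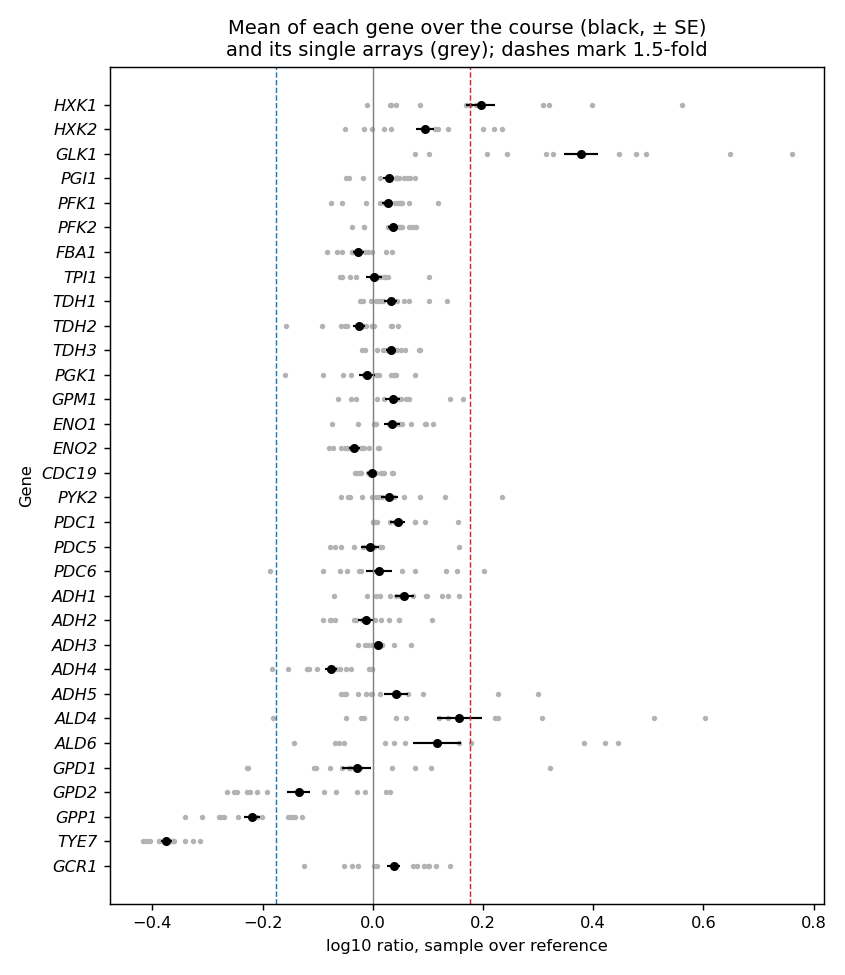
Mean log10 ratio over the course for each gene (black points, bars ± SE of the fit) with the 13 single arrays in grey, genes listed by role from top to bottom; dashed lines mark 1.5-fold. GLK1 and HXK1 lie beyond the upper line, GPP1 and TYE7 beyond the lower one.

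Pyruvate decarboxylase, the step that commits pyruvate to ethanol, has a major form, PDC1, and the minor forms PDC5 and PDC6. PDC1 (YLR044C) had log10 ratios of 0.00087, 0.05, 0.0008, 0.05, 0.09, 0.04, 0.0015, 0.15, 0.01, 0.08, 0.08, 0.0039 and 0.03. PDC5 (YLR134W) had -0.07, -0.01, 0.003, 0.02, 0.01, -0.02, 0.0028, 0.16, -0.08, -0.0002, -0.0049, -0.03 and -0.06. Both had their highest value at 70 min, and apart from that array PDC5 never exceeded 0.02. PDC6 ranged more widely, from -0.19 at 30 min to 0.20 at 60 min. Its swing of 1.48-fold did not pass (adjusted p = 0.171). Of the 3 genes 0 were called for a cycle, against 15.0% of all genes tested. A mean at least 1.5-fold from the reference was called for 0 of the 3, against 2.67% of all genes higher and 4.24% lower. By adjusted p alone 1 of the 3 means, that of PDC1, differed from 0, against 65.6% of all genes.

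Of the 5 alcohol dehydrogenase genes, ADH1 makes ethanol in glucose-grown cells, ADH2 is the glucose-repressed form that oxidises it, ADH3 is mitochondrial, and ADH4 and ADH5 are minor forms. ADH1 (YOL086C) had ratios of -0.01, 0.07, 0.05, 0.16, 0.12, 0.10, 0.04, 0.14, -0.07, 0.01, 0.01, 0.03 and 0.10, and ADH2 (YMR303C) had -0.07, 0.01, -0.08, 0.0032, 0.03, 0.05, 0.11, -0.03, -0.08, -0.09, -0.03, -0.02 and 0.05. ADH2 therefore stayed near the level of the reference throughout, at most 0.11 above it, at 60 min. ADH4 (YGL256W) lay under the reference throughout, on 13 of 13 arrays, with ratios of -0.06, -0.18, -0.15, -0.05, -0.00073, -0.01, -0.00077, -0.12, -0.10, -0.12, -0.08, -0.07 and -0.04. Its lowest values were those of 10 and 20 min, the times at which GLK1 was highest. Its mean of -0.08 ± 0.0116 (SE) was 1.19-fold below the reference, short of the 1.5-fold minimum. The fitted swing of ADH4, 1.35-fold with a peak at 47.8 ± 2.44 min, had an adjusted p of 0.0547. ADH5 reached 0.23 at 10 min and 0.30 at 20 min, against -0.06 to 0.09 elsewhere, and ADH3 stayed between -0.03 and 0.07. Limma called 0 of the 5 for a cycle, linear time, the 0 min array or a mean at least 1.5-fold from the reference. Over all genes tested 15.0% were called for a cycle, and 2.67% and 4.24% for a higher or lower mean. By adjusted p alone 2 of the 5 means, those of ADH1 and ADH4, differed from 0, against 65.6% of all genes.

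The aldehyde dehydrogenases turn acetaldehyde into acetate, and 1 of them held the widest range of the set. ALD4 (YOR374W), the mitochondrial enzyme, had log10 ratios of -0.18, 0.60, 0.51, 0.22, -0.05, -0.02, -0.02, 0.06, 0.23, 0.31, 0.14, 0.04 and 0.12. It was lowest at the arrest, highest at 10 min and had a second maximum at 90 min. Highest and lowest array lay 6.06-fold apart. Its cycle passed the test (swing 2.85-fold, peak 19.8 ± 2.53 min, adjusted p = 0.0491). The ALD4 cycle call was lost in 14 of 24 alternatives, among them each fit that dropped the array of 0, 20, 30, 40, 50, 60, 90, 100 or 110 min (0.0535 to 0.123). The cytosolic enzyme gene ALD6 (YPL061W) had -0.07, 0.42, 0.44, 0.38, 0.18, 0.06, 0.12, 0.04, -0.14, -0.06, -0.05, 0.02 and 0.16. It stayed high for longer in the first hour, at 10, 20 and 30 min, and was below 0 at 80, 90 and 100 min, where ALD4 was above 0. A cycle was not called for ALD6 (swing 1.18-fold, adjusted p = 0.889). Means were 0.16 ± 0.0403 for ALD4 and 0.12 ± 0.0438 for ALD6, both short of 1.5-fold.

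Glycerol is made in 2 steps, by glycerol 3-phosphate dehydrogenase (GPD1, known for osmotic stress, and GPD2, known for growth without oxygen) and a phosphatase (GPP1). On all 13 arrays GPP1 (YIL053W) was lower in the sample than in the reference, at log10 ratios of -0.27, -0.15, -0.21, -0.15, -0.13, -0.14, -0.15, -0.28, -0.34, -0.31, -0.20, -0.28 and -0.24. The mean was 1.66-fold lower (-0.22 ± 0.015, limma, adjusted p = 3.13e-08). It was one of 2 members called lower, again 6.25% of 32, where 4.24% of all genes tested were. GPD1 (YDL022W) had -0.08, 0.32, 0.08, -0.06, -0.23, -0.23, -0.04, 0.04, -0.04, -0.02, -0.10, -0.11 and 0.11. It was highest at 10 min and lowest at 40 and 50 min. The GPD1 cycle (2.07-fold, peak 11.7 ± 2.24 min, adjusted p = 0.0424) was lost in 11 of 24 alternatives, including each fit that dropped the array of 20, 30, 40, 50, 60, 90, 100 or 110 min (0.0522 to 0.145). GPD2 (YOL059W) had -0.21, 0.03, -0.01, 0.02, -0.03, -0.09, -0.07, -0.19, -0.22, -0.25, -0.25, -0.26 and -0.23. From 10 to 60 min it stayed between -0.09 and 0.03 and from 70 to 120 min between -0.26 and -0.19. How many of all genes part in this way was not counted. The array of 0 min, at -0.21, lay with the later stretch of GPD2. The slope, -0.13 ± 0.0359 log10 units per 60 min, missed the threshold (adjusted p = 0.0688).

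The 2 transcription factor genes behaved unlike each other. TYE7 (YOR344C), for a basic helix-loop-helix activator of glycolytic genes, had log10 ratios of -0.33, -0.38, -0.42, -0.36, -0.34, -0.37, -0.39, -0.36, -0.41, -0.41, -0.31, -0.39 and -0.41. It was the lowest of the 32 genes on average and spanned only 0.10 log10 units, at -0.37 ± 0.00985 (SE, n = 13 arrays) or 2.37-fold below the reference (limma, adjusted p = 8.45e-12). The call held in 22 of 22 alternatives. GCR1 (YPL075W), for the activator that many glycolytic promoters bind, had 0.0029, -0.04, -0.05, 0.09, 0.14, 0.07, -0.03, -0.13, 0.01, 0.08, 0.11, 0.10 and 0.10. The highs were at 40 and 100 min and the lows at 20 and 70 min. Its swing of 1.55-fold peaked at 40.9 ± 1.73 min (adjusted p = 0.0111), later in the cycle than the fitted peaks of HXK1 and GLK1. The GCR1 cycle was no longer called when the 40 min array was dropped (adjusted p = 0.0524) or with 2 harmonics (0.0869). None of the enzyme genes measured was as far below the reference as TYE7.

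The count of periodic members depended on single arrays, and the share over all genes did not always move with it. From 5 of 32 and 15.0%, both fell without some arrays. The count was 3 of 32 without the 20, 30, 90 or 100 min array, where 9.36% to 12.3% of all genes were called. It was 2 without the 40 or 50 min array, where 8.52% and 7.90% were. Without the 0 min array 7 members were called against 14.2% of all genes, and without the 80 min array 6 against 14.3%. Without the 110 min array the count was 4, against 15.4%. With array weights it was 15, against 24.9% of all genes, which added HXK2, PFK1, PFK2, TDH2, GPM1, PYK2, PDC6, ADH2, ADH4 and GPP1, with swings of 1.22-fold to 1.65-fold.

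The arrest and the first array after release lay far apart for several genes. At 10 min, 9 of the 31 members with both values (29.0%) were at least 1.5-fold above their value at 0 min, against 7.29% of 6065 genes, and 0 were as much below it, against 6.17%. This sets 1 array against 1 other and has no test. ALD4 was 6.06-fold higher at 10 min than at 0 min, GLK1 4.54-fold, HXK1 3.74-fold, ALD6 3.09-fold and GPD1 2.50-fold. The other members past the limit were HXK2 (1.78-fold), GPD2 (1.75-fold), ADH5 (1.64-fold) and PYK2 (1.51-fold). HXK2 is a main enzyme gene, and other main enzyme genes had smaller differences between these arrays. TDH3 was at 1.11-fold, PDC1 at 1.11-fold, ADH1 at 1.21-fold, CDC19 at 1.10-fold, PGK1 at 1.22-fold and ENO2 at 1.23-fold. Of the 31 members 25 were higher at 10 min than at 0 min by any amount, against 2770 of 6065 genes. In a culture, fewer cells with a transcript and less of it per cell cannot be told apart.

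A second, smaller maximum followed for some of these genes. HXK1 spanned 0.53 log10 units from 10 to 60 min and 0.28 from 70 to 120 min, GLK1 0.68 and 0.25, and ALD4 0.65 and 0.26. For each of these 3 the second maximum fell at 80 or 90 min. ADH5, by contrast, spanned 0.31 and then 0.06, and PYK2 0.29 and then 0.08. ALD6 had no maximum at 80 or 90 min and was at its lowest at 80 min. These are values of single arrays without a test of the difference.

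Markers of general stress, taken as a mean, were also highest at the 10 min array, though not each of them. The mean of 11 genes of the stress response was 0.08 at 0 min, 0.25 at 10 min and 0.17 at 20 min, and lay between 0.05 and 0.15 from 30 to 120 min, so it had no second maximum of that size. At 10 min 8 of the 11 were above their value at 0 min, where 2770 of 6065 genes were. At least 1.5-fold above it were 6 of the 11, against 7.29% of all genes. The trehalose synthesis gene TSL1 (3.98-fold) and the chaperone gene HSP104 (2.13-fold) led, while HSP12, a classical stress gene, was at 0.968-fold. By limma's F test 2 of the 11 were periodic, where 15.0% of all genes were. These were TSL1 (peak 16.8 ± 2.31 min, adjusted p = 0.0440, lost in 15 of 24 alternatives) and SSA3 (50.4 ± 2.14 min, 0.0238, lost in 7 of 24). HSP104 was the 1 called at least 1.5-fold above the reference on average (0.39), against 2.67% of all genes. Release also put the cells into fresh medium and ended the pheromone treatment, and the part of each in these values was not tested.

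No member was called as drifting or as different at the arrest, though both tests can miss moderate changes. On simulated data the test of linear time called 55.2% of 1.58-fold changes over 120 min. The test of the 0 min array called 56.0% of simulated 1.58-fold changes. By the limma test of linear time, 0 of 32 rose and 0 fell, where 1.19% and 1.12% of all genes did. At an unadjusted p under 0.05, 0 had a positive slope and 5 a negative one (PFK1, TDH2, ADH5, GPD2 and GPP1), against 8.18% and 9.51% of all genes. Without the 0 min array 4 were called falling, HXK2, TDH2, GPD2 and GPP1 (adjusted p from 0.000324 to 0.0481), and 1.59% of all genes were. GPD2 was also called falling with array weights (adjusted p = 0.0037), with a period 5 min longer (0.0397) and without the 0 and 10 min arrays (0.000824). The 0 min array differed from the later ones for 0 of 31 members in either direction by limma, where 0.900% of genes were higher and 0.802% lower. At an unadjusted p under 0.05, 0 were higher and 3 lower (HXK1, GLK1 and ADH2), against 5.68% and 5.91% of all genes. When linear time was added to that fit HXK2 and GPD2 were called lower at 0 min (-0.23 and -0.31, adjusted p = 0.0270 and 0.00456), as were 1.03% of all genes.

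Isozymes were compared as the difference of 2 log10 ratios on each array, which sets their changes against the reference side by side and says nothing of which is more abundant. Of 18 pairs, 9 had a mean difference that passed an exact two-sided sign-flip permutation test over the 13 arrays (adjusted over the 18 pairs; 11 at an unadjusted p under 0.05). All 9 calls held under each of the 15 alternatives run, of which those with 1 array left out could have changed them. The median of an array cancels in a difference of 2 genes on it, so alternatives that only alter the centring could not. The arrays are successive samples of 1 culture and not independent, so these p-values measure the spread between arrays only. Since 65.6% of all genes had a mean that differed from 0 by adjusted p alone, and the middle 50% of gene means lay between -0.05 and 0.05, small offsets between 2 genes were common on these arrays.

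The largest mean difference among the pairs was between 2 hexose kinases. GLK1 was above HXK2 on 13 of 13 arrays, by 0.28 ± 0.14 log10 units (SD, n = 13 arrays; 1.91-fold; permutation p = 0.000244, the smallest that 13 arrays allow, adjusted p = 0.00146), with 0.56 at 10 min and 0.04 at 50 min. HXK1 exceeded HXK2 by 0.10 ± 0.117 on 10 of 13 arrays (1.26-fold, adjusted p = 0.0137 by the exact permutation test). HXK1 lay below GLK1 on 13 of 13 arrays by a steadier 1.52-fold (-0.18 ± 0.0651, adjusted p = 0.00146, exact permutation). A cycle in the difference was called for 0 of the 18 pairs by permutation of the time order (4 at an unadjusted p under 0.05). For GLK1 minus HXK2 that permutation gave p = 0.0216 and an adjusted p of 0.147.

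Within glycolysis below the hexose kinases, 3 of the 6 pairs had a mean difference that passed. TDH1 was above TDH2 on 12 of 13 arrays (0.06 ± 0.0479, 1.14-fold, adjusted p = 0.0022), and TDH2 was below TDH3 on 10 of 13 (-0.06 ± 0.0523, 1.14-fold, adjusted p = 0.00565). TDH1 and TDH3 were not told apart, with a difference of 0.000445 ± 0.0475 and single arrays from -0.07 to 0.10. ENO1 exceeded ENO2 on 11 of 13 arrays (0.07 ± 0.0453, 1.17-fold, adjusted p = 0.00352, exact permutation). The subunit genes PFK1 and PFK2 differed by -0.01 ± 0.024, with an adjusted p of 0.215. PYK2 minus CDC19 ran from -0.06 at 90 min to 0.20 at 10 min (mean 0.03 ± 0.0768, adjusted p = 0.215).

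Among the enzymes of fermentation, PDC5 lay below PDC1 on 10 of 13 arrays (-0.05 ± 0.0346, 1.12-fold, adjusted p = 0.00565, exact permutation). ADH2 lay below ADH1 on 12 of 13 (-0.07 ± 0.0623, 1.17-fold, adjusted p = 0.00824). ADH4 lay below ADH1 on 13 of 13 (-0.13 ± 0.0763, 1.36-fold, adjusted p = 0.00146). PDC6 against PDC1, PDC6 against PDC5, ADH3 against ADH1 and ADH5 against ADH1 did not pass (adjusted p from 0.0667 to 0.669), and PDC6 minus PDC1 spread from -0.24 to 0.20.

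The pairs with the widest spread had no mean difference that passed. ALD4 minus ALD6 ran from -0.23 at 40 min to 0.37 at 80 min (mean 0.04 ± 0.193, adjusted p = 0.61). GPD1 minus GPD2 ran from -0.20 at 40 min to 0.33 at 120 min (mean 0.11 ± 0.163, adjusted p = 0.0667). Tested for a cycle in the difference, these pairs had unadjusted p-values of 0.0245 and 0.0129 from permuted time orders and an adjusted p of 0.147 each. Isozyme genes of near-identical sequence can share signal on an array, and the sources used here do not give the probes, so the part of such sharing was not tested.

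**Figure D4:**
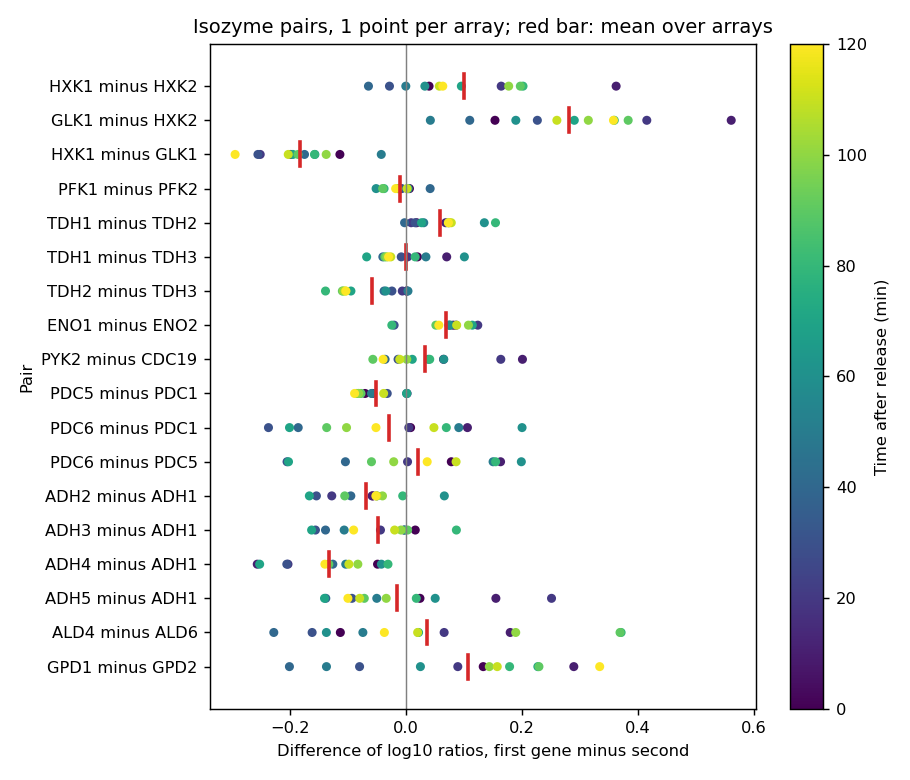
Difference of log10 ratios, first gene minus second (horizontal axis), for 18 pairs (vertical axis), 1 point per array coloured by time after release (min), with a red bar at the mean over arrays. All 13 points of GLK1 minus HXK2 lie above 0 and all 13 of HXK1 minus GLK1 and ADH4 minus ADH1 below it, while ALD4 minus ALD6 spreads from -0.23 to 0.37.

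The neighbouring pathways gave a few further calls, counted against the same background of 15.0% for a cycle and 2.67% and 4.24% for a mean at least 1.5-fold higher or lower. Of 11 genes of the pentose phosphate pathway, which branches off at glucose 6-phosphate, 1 was periodic, RKI1 for ribose 5-phosphate isomerase (1.67-fold, peak 51.7 ± 1.58 min, adjusted p = 0.00453). Its lowest value was -0.25 at 20 min, and the next lowest were -0.19 at 80 min and -0.19 at 10 min. Of the 5 genes of gluconeogenesis and the glyoxylate cycle, which glucose represses, limma called 0 for a cycle, linear time or the 0 min array. None had a mean at least 1.5-fold from the reference, and their means ran from -0.01 to 0.08. By adjusted p alone 4 of the 5 means differed from 0, against 65.6% of all genes. In the linear time test 1 of them, PCK1 for phosphoenolpyruvate carboxykinase, had an unadjusted p under 0.05 (0.00909).

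Of 9 regulators of glycolysis, 3 were periodic: RAP1, the partner of Gcr1 (1.60-fold, peak 39.4 ± 2.11 min, adjusted p = 0.0245), PDC2, an activator of the pyruvate decarboxylase genes (1.38-fold, 53.0 ± 2.52 min, 0.0382), and HAP4, an activator of respiratory genes (1.92-fold, 6.46 ± 1.86 min, 0.0108). With 2 harmonics all 3 calls were lost, and PDC2 lost its call in 13 of 24 alternatives. The glucose repressor gene MIG1 was lower at 0 min than later (-0.26, adjusted p = 0.0326, lost in 8 of 18 alternatives). Of 13 genes of pyruvate and acetate metabolism 2 lay at least 1.5-fold above the reference, the aldehyde dehydrogenase gene ALD2 (1.65-fold) and LPD1 for lipoamide dehydrogenase (1.52-fold), and of 7 further glycerol genes 1 did, GUT2 for the mitochondrial glycerol 3-phosphate dehydrogenase (1.53-fold). LPD1 fell short of 1.5-fold without the 20 or 120 min array, and GUT2 without the 20 or 60 min array. GPP2, the paralogue of GPP1, averaged -0.12 ± 0.0153.

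Of 9 further paralogues, EMI2, which is related to GLK1, was periodic (2.78-fold, peak 15.3 ± 1.17 min, adjusted p = 0.00127, held in 24 of 24 alternatives). Its ratios were -0.07 at 0 min, 0.34 at 10 min, -0.15 at 40 and 50 min and 0.27 at 80 min, so its 2 maxima fell at the same times as those of HXK1. BDH1, for butanediol dehydrogenase, averaged 1.80-fold above the reference, and ADH6 fell along the course (-0.09 per 60 min, adjusted p = 0.0371, lost in 9 of 20 alternatives).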

How the data were processed

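Per the labels, Cy5 marked the time-point sample and Cy3 the reference, on 13 arrays with no dye swap. The deposited table holds log10 ratios, 1 row per gene. The base was inferred: 18 values sit exactly at a limit of 2 in size (100-fold in base 10) and the largest other is 1.61. The sources used here do not say how the authors corrected background or normalised. No scanner files were used, so spot brightness is unknown. Of 6217 rows, 12 control rows were left out. Symbols came from a RefSeq table of assembly R64 (5704 of 6205 matched).

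Values at the limit were set to missing and each array centred on its median. Genes with values on at least 10 of 13 arrays (6151) were fitted with limma 3.58.1 in R 4.3.3 (lmFit, eBayes). The model held an intercept, a linear trend and a sine wave of 62 min, the period from 50 to 80 min that fitted the mean of a G1/S list best. Tests were limma's F test of the wave, the intercept against 0 (with at least 1.5-fold), the trend, and, without the trend, a term for 0 min. The Benjamini-Hochberg adjustment ran over all genes tested, with a threshold of 0.05. They measure the scatter of 13 arrays of 1 culture, not the spread between cultures. Isozyme pairs were tested by sign-flip permutation, and for a cycle by permuting the arrays' times 100000 times, a test added after seeing the data. The median residual SD was 0.0436 log10 units. On simulated data for 6151 genes, 18.0% of swings of 1.26-fold, 74.0% of those of 1.58-fold and 100% of those of 2.51-fold were called.

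The members, lists and tests were chosen with earlier results of these data known. All 32 members are described. Members called in a limma test or in a pair that differed have every array given, as have GPD2 and ALD6 for their partners, and of the other lists up to 3 called genes per test are named. GPP2, the stress genes and the genes of the label and cycle check are named beside these.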

Additional observations from a re-analysis of the deposited data

How the results depend on the processing

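Of the counts, members rising over the course and members higher at 0 min stayed at 0 in every alternative that could be run, and no called direction reversed. The 5 periodic members were 3 with a robust fit (14.9% of all genes called) or a period 5 min shorter (7.40%), 15 with array weights (24.9%), 0 with 2 harmonics (3.45%), 9 without the 0 and 10 min arrays (14.7%; an alternative chosen after seeing the data) and 2 to 7 with 1 array left out. With 2 harmonics GLK1, HXK1, ALD4, GPD1 and GCR1 all lost their calls. By adjusted p alone 14 members were above and 6 below the reference, together 62.5% of the 32, where 65.6% of all genes differed. With at least 2-fold 1 was above and 1 below (GLK1 and TYE7). With 1 array left out, 1 to 3 were at least 1.5-fold above. No share over all genes is given for the 2-fold limit or for the fits with 1 array left out. Falling members numbered 4 with array weights (3.33% of all genes), 0 to 4 with 1 array left out and, in fits added after seeing the data, 2 with a period 5 min longer (1.69%) and 2 without the 0 and 10 min arrays (1.16%). With linear time in the fit 2 members were lower at 0 min. At 10 min 5 members were at least 2-fold above 0 min, a limit at which the share over all genes was not counted. At the 1.5-fold limit 9 of 31 were, against 7.29% of all genes. The 9 isozyme pairs were 9 to 11 with 1 array left out. The 0 min term could not be fitted without that array. No paired analysis was possible because each time point has 1 array. The number of arrays limits the precision.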

Other observations

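GPM1, PDC1 and PDC5, chosen here after seeing the values, had their highest log10 ratio of the whole course on the 70 min array, with 0.16, 0.15 and 0.16, whereas TDH1 had its lowest there, -0.02. On the next array, of 80 min, they were at -0.03, 0.01 and -0.08, and PGK1 and TDH2 had their lowest values, -0.16 each. ADH1 went the same way, with 0.14 at 70 min and its lowest value, -0.07, at 80 min. These are single arrays with no test.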
